A study of Mus musculus with 9 samples.

Results

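The genes of cholesterol and fatty acid synthesis were examined in activated mouse CD8+ T cells. They were chosen as a list of 29 gene symbols and read from the batch-corrected table that the authors deposited, which lists 24391 genes. All 29 symbols were listed there, and 27 passed the filter on low counts that left 11981 genes for testing. RNA was sequenced from cultured CD8+ T cells, the killer lymphocytes of adaptive immunity. LSD1i denotes cells activated for 72 h with an inhibitor of LSD1, a histone demethylase of corepressor complexes, and comprised 4 libraries. NT denotes cells activated for the same time without it and comprised 5 libraries, and the medium of both held interleukin 2 at 100 U/mL. The sources used here give no mouse strain, age, genotype, inhibitor name or dose. The comparison asked which of these genes differed in RNA level between cells activated with and without the inhibitor.

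Cholesterol is built from acetyl-CoA through mevalonate, farnesyl diphosphate, squalene and lanosterol. Its enzymes are transcribed under the SREBP factors, which SCAP escorts from the endoplasmic reticulum when sterols are low and INSIG proteins hold back when sterols are plentiful. Fatty acids are built from citrate-derived acetyl-CoA and then elongated and desaturated, and the LXR receptors, which pair with RXR, switch on sterol efflux and Srebf1. Activated T cells are known to raise both routes of synthesis to supply membranes for division.

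The libraries held 15003752 to 27215488 corrected counts and 15163983 to 29245278 raw reads. The raw and the batch-corrected table disagree on 4 library names: the columns LSD1i 1, LSD1i 2, NT 1 and NT 2 of the corrected table had the same genes at 0 as the raw columns NT 1, NT 2, LSD1i 1 and LSD1i 2. Each such pair had 0 mismatches, against at least 1336 for the next best library. The other 5 libraries, LSD1i 3, LSD1i 4 and NT 3 to NT 5, bear the same name in both tables. The files do not say which table is right on the 4 crossed names, and those of the corrected table are used throughout, so directions over all 9 libraries rest on them. The labels give no batch. Replicates 1 and 2 were taken as a first batch and replicates 3 to 5 as a second from the data, where Rpph1 held 0.297% to 0.476% of raw reads in replicates 1 and 2 and 2.83% to 3.09% in the others. The library NT 1 stood apart, with 13.35% of its raw reads on the ribosomal RNA precursor gene Rn45s, against 1.67% to 2.87% in the other libraries. As the labels leave unsaid whether replicates are separate mice or cultures, every p-value is set by the spread among libraries, part of which may be technical. The 8 CD8 T cell genes Cd3d, Cd3e, Cd3g, Cd8a, Cd8b1, Cd2, Cd247 and Lck summed to 2340 to 2553 CPM (counts scaled to the library's total) in LSD1i libraries and 2067 to 2322 CPM in NT libraries. Among 7 myeloid markers, which summed to 6.60 to 9.68 CPM in LSD1i libraries and 5.77 to 9.48 CPM in NT libraries, nearly all of the signal was Cd68, and Lyz2 and Csf1r had at most 1 raw read. The 4 B cell markers summed to at most 0.406 CPM in LSD1i libraries and 0.262 CPM in NT libraries. Cd4 reached at most 0.232 CPM in LSD1i libraries and 0.212 CPM in NT libraries, and of the 5 fat and liver cell markers Fabp4 and Apoa1 were at 0 in every library.

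None of the 27 tested lipid synthesis genes passed the test for a difference between LSD1i and NT cells. The count was 0 of 27 with edgeR's quasi-likelihood test (Benjamini-Hochberg adjusted over all 11981 genes, threshold 0.05), against 3.31% of all genes tested (2.15% higher and 1.16% lower in LSD1i). Limma voom called 0 of 27, against 3.23% of all genes, and DESeq2 0 of 28, against 4.85%. At such shares, 0 called in a list of this length, or in the shorter lists by role below, does not set these genes apart. At an unadjusted p under 0.05 there was 1 gene, Srebf1, against 14.6% of all genes. The log2 fold changes of LSD1i over NT ran from -0.24 for Acaca to 0.20 for Srebf1, with 11 above 0, 16 below 0 and a median of -0.04, beside a median of -0.02 over all genes tested. In 0 of 27 genes did the 4 LSD1i libraries all lie on one side of the 5 NT libraries, which happened in 7.73% of all genes tested. The 95% interval of the fold change lay within 2-fold either way for all 27 genes and within 1.5-fold for 26 of them, the widest bound being 1.53-fold lower for Abca1. A p that misses the threshold does not show equal levels. These intervals give the sizes of change that the libraries left possible under the names of the corrected table. In bulk RNA, fewer cells of a type and less RNA per cell cannot be told apart.

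Under the names of the corrected table, the raw counts gave a like result. With the raw libraries under the names of the corrected table and the batch as a term in the edgeR fit, 0 of 27 genes passed, against 1.85% of 11916 genes, and 0 had an unadjusted p under 0.05, against 11.2% of all genes. The median was -0.04, and the 95% intervals lay within 2-fold for all 27 and within 1.5-fold for 25. With the replicate number as a block in place of the batch term, 0 of 27 passed, against 2.95% of all genes. Under the raw table's own names, edgeR called 0 of 11916 genes, with 172 at an unadjusted p under 0.05. The 27 genes then had a median of 0.06. Their standard errors were larger, with a median of 0.20 against 0.13 with the batch term. The fit under the raw names held group as its only term, so names and terms differ together in this comparison. The part of each in the larger errors was not tested. By group only, the raw counts under the names of the corrected table gave 84 genes called. In the fit under the raw names, Fasn stood at 0.11 ± 0.49 and Srebf2 at 0.43 ± 0.29 (SE). The bounds of 2-fold and 1.5-fold were not computed under those names and do not carry over to them. In the authors' deposited table of fold changes, 0 of the 28 listed genes were marked as changed, against 0.688% of its 20052 genes. The largest change among them in either direction was 0.27 on the log2 scale, that of Nr1h3, which did not pass the low-count filter here. Among the 27 tested genes it was -0.23, that of Acaca. The count of all genes called with edgeR was 397 and depended on single libraries: it was 228 without LSD1i 1, 251 without LSD1i 3 and 219 without LSD1i 4, with 0 of 27 lipid synthesis genes called in each.

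**Figure D1:**
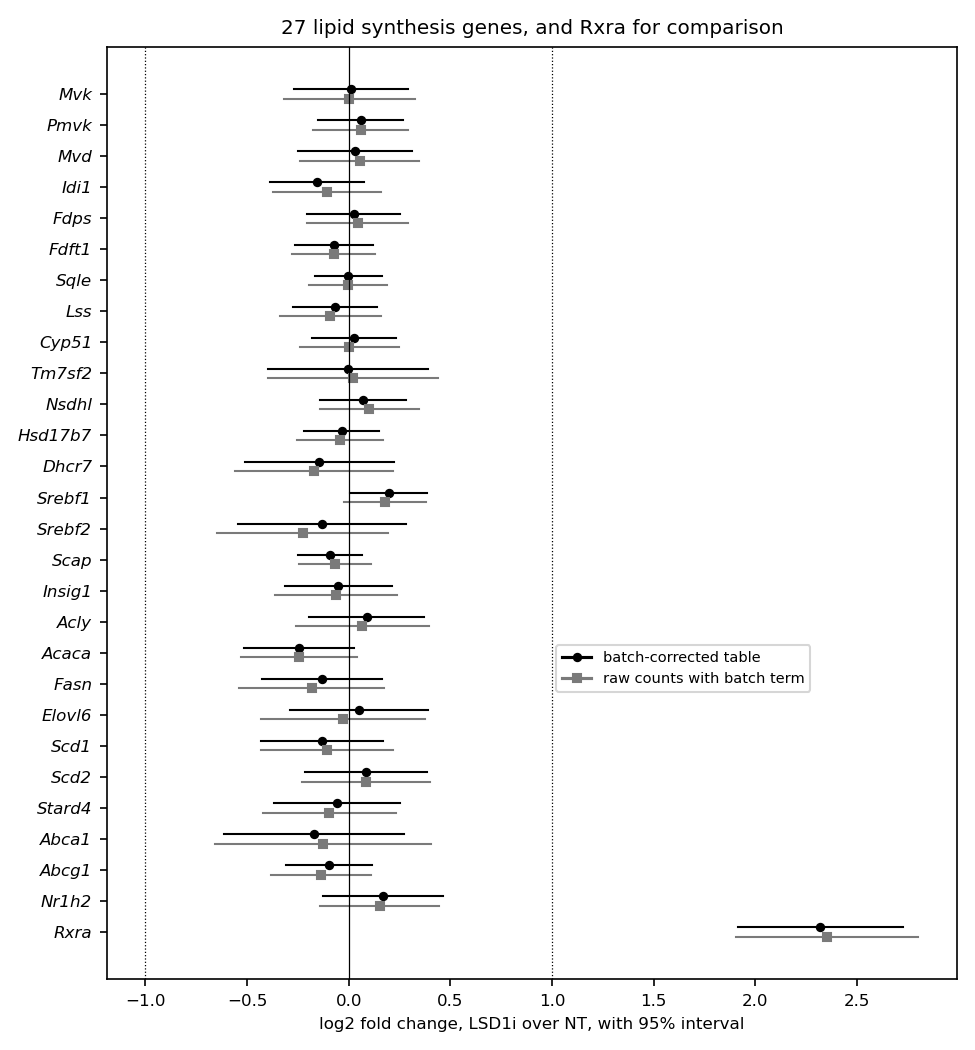
Log2 fold change of LSD1i over NT on the horizontal axis for the 27 tested lipid synthesis genes and, for comparison, Rxra, with 95% intervals as bars. Black circles are the batch-corrected table, grey squares the raw counts with a batch term, and dotted lines mark 2-fold changes. All 27 genes lie between the dotted lines in both fits, and Rxra, at 2.32 and 2.35, lies beyond them.

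The promoters of these genes were searched for short motifs of SREBP, of LXR and of factors that SREBP works with. Of the 29 genes, 22, with 29 start sites in all, were found in the RefSeq promoter table of GRCm38.p6. Fdps, Fdft1, Sqle, Scd1, Scd2, Stard4 and Abcg1 were not found there and were not searched. GRCm38.p6 is not the build named by the submitters, which is mm9. Windows ran from 250 bases before to 50 bases after each start site, and both strands were searched. The CCAAT motif, bound by NF-Y, was in 17 of 29 windows (58.6%), from 16 genes, against 37.4% of all 32851 windows in the table. The motif GGGCGG, bound by Sp1, was in 19 windows (65.5%), from 16 genes, against 35.7% of all windows. A sterol response element written TCACNCCAC was in 1 window, that of Hmgcs1, 137 bases before its start site, against 1.24% of all windows. Only that written form was searched, so the count does not show that the other genes lack a sterol response element. The LXR element known as DR4 was searched only as an exact direct repeat with a spacer. That form was in 0 windows, against 0.0152% of all windows. Inexact forms of the element were not searched, so the count does not show that Abca1 or any other gene lacks it. These matches are descriptions of sequence. The 120 bases before the start site are printed for Mvk, Mvd, Lss, Fasn, Cyp51 and Tm7sf2, the genes that hold CCAAT there and also belong to the group described with the library values, which moved together between libraries. They were picked after those values were seen. The motif and the group do not coincide. Pmvk, Insig1, Acly and Elovl6 belong to the group without CCAAT in this stretch, and Hsd17b7, Dhcr7, Idi1, Nsdhl and Srebf1 hold it outside the group. Fdps and Sqle also belong to the group, but their promoters were not searched. Hmgcs1 holds CCAAT in its stretch too, but its level was not measured. The stretches lie at chr5:114444149-114444268 (plus strand) for Mvk, chr8:122443423-122443542 (minus strand) for Mvd, chr10:76531485-76531604 (plus strand) for Lss, chr11:120824548-120824667 (minus strand) for Fasn, chr5:4104698-4104817 (minus strand) for Cyp51 and chr19:6067851-6067970 (minus strand) for Tm7sf2. They read 5′ to 3′ along the gene, and capitals mark CCAAT or its reverse complement ATTGG and, in Tm7sf2, also CCGCCC, the reverse complement of GGGCGG.
Mvk: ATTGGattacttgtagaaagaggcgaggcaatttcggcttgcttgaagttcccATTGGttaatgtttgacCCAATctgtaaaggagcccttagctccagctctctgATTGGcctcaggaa
Mvd: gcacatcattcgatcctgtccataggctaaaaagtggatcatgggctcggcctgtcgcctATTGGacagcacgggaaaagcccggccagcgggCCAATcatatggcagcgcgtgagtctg
Lss: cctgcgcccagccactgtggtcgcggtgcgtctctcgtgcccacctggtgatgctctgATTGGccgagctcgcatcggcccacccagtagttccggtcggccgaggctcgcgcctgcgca
Fasn: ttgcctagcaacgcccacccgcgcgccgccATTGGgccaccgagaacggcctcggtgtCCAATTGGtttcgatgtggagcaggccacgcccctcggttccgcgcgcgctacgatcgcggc
Cyp51: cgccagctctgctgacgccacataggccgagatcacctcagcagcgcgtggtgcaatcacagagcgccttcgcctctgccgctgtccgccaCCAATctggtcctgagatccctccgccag
Tm7sf2: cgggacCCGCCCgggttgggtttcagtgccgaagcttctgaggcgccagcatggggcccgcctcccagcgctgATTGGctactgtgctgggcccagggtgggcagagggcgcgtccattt
CCAAT occurs 4 times in the Mvk stretch, 2 times in that of Mvd, 1 time each in those of Lss, Cyp51 and Tm7sf2, and 3 times in that of Fasn, where 2 of the matches overlap in the run CCAATTGG.

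The mevalonate steps lead from acetyl-CoA to farnesyl diphosphate, and 0 of their 5 tested genes passed. Hmgcs1, the synthase that makes HMG-CoA, had 0 reads in all 9 libraries of both tables. It stood in a run of 5 neighbouring rows at 0, with Zfp131, Nim1k, 1700074H08Rik and Ccl28, and 4339 genes in all were at 0 everywhere, so its level counts as not measured here. Idi1, which interconverts the isoprenoid building blocks, had the smallest p of the group. It measured 27.6, 27.4, 22.1 and 24.8 CPM in LSD1i libraries, against 24.5, 28.1, 27.7, 28.2 and 32.6 CPM in NT libraries. The groups overlapped, with the lowest value in LSD1i 3 and the highest in NT 5, and the log2 fold change was -0.16 ± 0.11 (SE; edgeR adjusted p = 0.589). Mvk and Pmvk, the mevalonate and phosphomevalonate kinases, averaged 34.0 ± 2.58 and 75.0 ± 6.21 CPM in LSD1i cells (SD, n = 4) and 33.5 ± 5.82 and 71.6 ± 7.37 CPM in NT cells (SD, n = 5). Mvd, the decarboxylase that follows them, averaged 77.4 ± 6.37 CPM in LSD1i cells and 75.3 ± 13.1 CPM in NT cells. For Fdps, farnesyl diphosphate synthase, the means were 353.6 ± 33.6 CPM in LSD1i cells and 345.7 ± 40.4 CPM in NT cells. Their log2 fold changes were 0.01 for Mvk, 0.06 for Pmvk, 0.03 for Mvd and 0.02 for Fdps, all smaller than their standard errors. Of the exon bases of Fdps in GENCODE M21, 26.7% are shared with Gm43738, and no strand setting is known for the counting, so reads there cannot be assigned to one gene.

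The steps from squalene to cholesterol had 8 members, and 0 of 8 passed. Dhcr7, the reductase of the last step of one branch, had the smallest p. It measured 23.2, 20.0, 24.9 and 27.7 CPM in LSD1i libraries, against 35.6, 23.3, 24.1, 19.7 and 28.5 CPM in NT libraries. NT 1 was highest and NT 4 lowest, the LSD1i values lay between them, and the log2 fold change was -0.15 ± 0.17 (SE; edgeR adjusted p = 0.787). In raw counts its log2 fold change was -0.50 within the first batch, which holds NT 1, and 0.10 within the second. Fdft1, squalene synthase, averaged 121.0 ± 4.77 CPM in LSD1i cells and 126.7 ± 13.6 CPM in NT cells. Sqle, squalene epoxidase, had means of 150.6 ± 10.3 CPM in LSD1i cells and 150 ± 6.99 CPM in NT cells, a log2 fold change of 0.00 with a 95% interval of -0.17 to 0.16. Lss, which closes the ring system as lanosterol synthase, averaged 145.0 ± 8.51 CPM in LSD1i cells and 151.0 ± 16.7 CPM in NT cells. The lanosterol demethylase Cyp51 averaged 350.8 ± 24.3 CPM in LSD1i cells and 342.3 ± 36.6 CPM in NT cells. The lower-level genes Tm7sf2, Nsdhl and Hsd17b7, which act on the sterol ring after lanosterol, had log2 fold changes of 0.00, 0.07 and -0.04. Exons of Fdft1 share 18.3% of their bases with Ctsb and those of Tm7sf2 share 12.1% with Vps51. Summed over the mevalonate and the squalene-to-cholesterol genes, the 4 LSD1i libraries held 1460, 1492, 1312 and 1530 CPM and the 5 NT libraries 1328, 1541, 1478, 1282 and 1575 CPM, so the LSD1i sums lay inside the NT range.

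**Figure D2:**
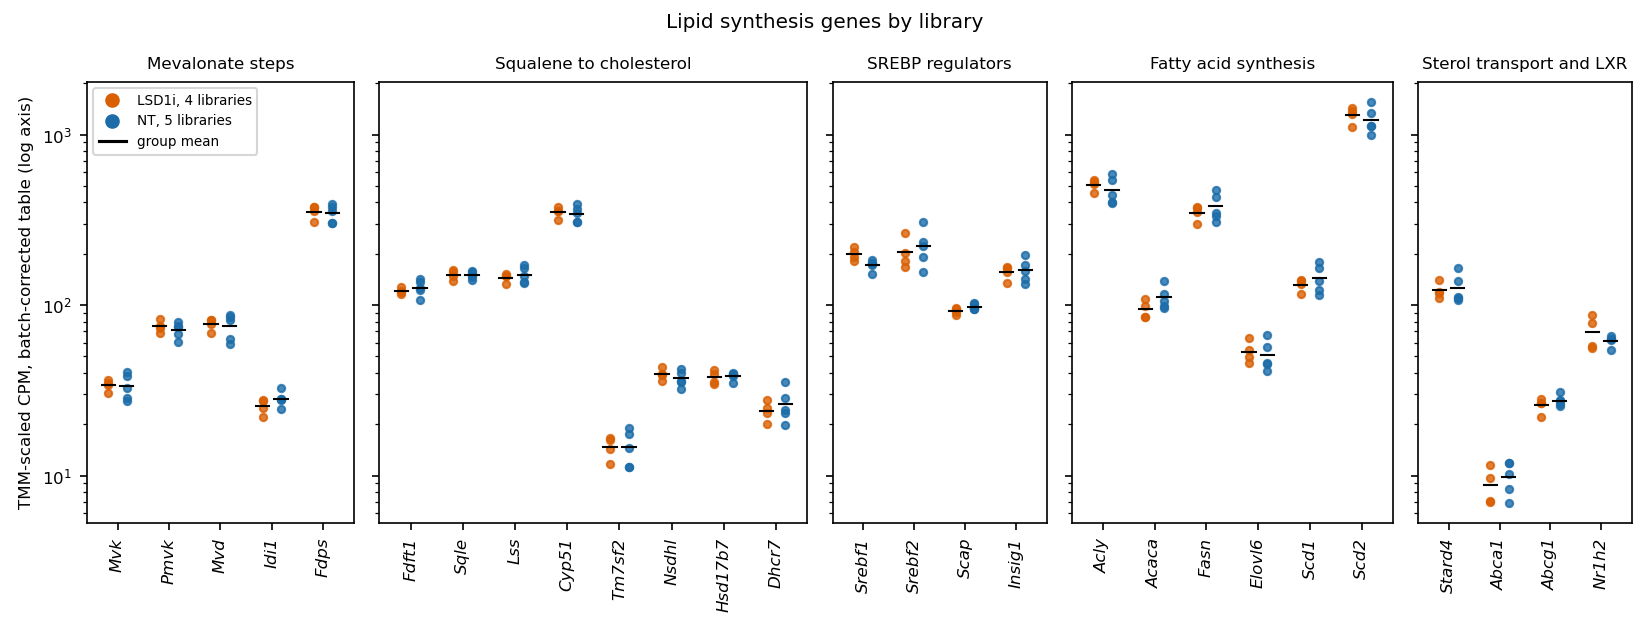
TMM-scaled CPM of the batch-corrected table on a log axis for each of the 27 tested genes, grouped by role. Each point is a library, orange for the 4 LSD1i and blue for the 5 NT libraries, and black bars are group means. The 2 groups overlap in every gene, with Abca1 lowest and Scd2 highest in level.

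Among the 4 regulators, 0 passed, and Srebf1 came nearest to a difference of all 27 genes. Srebf1 encodes the SREBP that leads on fatty acid synthesis. It measured 203.9, 181.8, 218.1 and 190.8 CPM in LSD1i libraries, against 176.5, 184.7, 171.6, 152.3 and 176.9 CPM in NT libraries. LSD1i 2 lay below NT 2 and the other LSD1i libraries lay above every NT library, so the groups overlapped by that one pair. The log2 fold change was 0.20 ± 0.09 (SE; unadjusted p = 0.0427, edgeR adjusted p = 0.318), and in raw counts with the batch term it was 0.18 (edgeR adjusted p = 0.517), with 0.05 within the first batch and 0.28 within the second. Srebf2, the SREBP that leads on cholesterol synthesis, measured 202.1, 167.9, 264.6 and 180.2 CPM in LSD1i libraries, against 306.5, 190.7, 235.5, 223.4 and 156.2 CPM in NT libraries. It had the widest spread within groups of all 27 genes, a standard deviation of 0.33 on the log2 scale, with NT 1 highest and NT 5 lowest. Its log2 fold change was -0.13 ± 0.19 (SE; edgeR adjusted p = 0.839), and in raw counts it was -0.59 within the first batch and 0.07 within the second. Insig1, which retains SCAP and is itself an SREBP target, measured 167.4, 165.1, 134.1 and 156.4 CPM in LSD1i libraries, against 132.4, 171.2, 158.8, 142.3 and 196.6 CPM in NT libraries. The NT values spanned those of LSD1i, and the log2 fold change was -0.05 ± 0.12 (SE; edgeR adjusted p = 0.913). Scap, the escort of SREBP, had the smallest spread of the 27 genes, 0.06 on the log2 scale, and averaged 92.4 ± 4.09 CPM in LSD1i cells and 98.0 ± 3.75 CPM in NT cells.

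In fatty acid synthesis 0 of 6 genes passed, and the lowest log2 fold change of all 27 genes was that of Acaca, the acetyl-CoA carboxylase that commits carbon to the pathway. Acaca measured 85.0, 98.4, 85.2 and 108.8 CPM in LSD1i libraries, against 137.7, 95.6, 99.2, 105.8 and 116.6 CPM in NT libraries. NT 1 was the highest, LSD1i 1 and LSD1i 3 were lowest, and LSD1i 2 and LSD1i 4 lay within the NT range. The log2 fold change was -0.24 ± 0.12 (SE; 95% interval -0.51 to 0.03, edgeR adjusted p = 0.405), with -0.37 in the first and -0.15 in the second batch of the raw counts. Fasn, the fatty acid synthase, measured 350.6, 375.9, 297.9 and 371.0 CPM in LSD1i libraries, against 309.0, 430.7, 348.0, 335.0 and 475.7 CPM in NT libraries. NT 5 and NT 2 were higher than every LSD1i library and LSD1i 3 was the lowest of all, with a log2 fold change of -0.13 ± 0.13 (SE; edgeR adjusted p = 0.751). Scd1, a desaturase that makes monounsaturated fatty acids, measured 138.5, 115.7, 132.6 and 139.8 CPM in LSD1i libraries, against 179.2, 121.8, 138.1, 114.3 and 163.9 CPM in NT libraries. For Scd1, NT 1 and NT 5 stood highest and the LSD1i values lay inside the NT range. The log2 fold change was -0.13 ± 0.14 (SE, edgeR adjusted p = 0.752). Its paralog Scd2 measured 1318, 1107, 1369 and 1432 CPM in LSD1i libraries, against 1560, 1120, 1122, 989.3 and 1330 CPM in NT libraries. The groups overlapped and the log2 fold change was 0.09 ± 0.14 (SE; edgeR adjusted p = 0.861). The sources used here do not say how reads matching both Scd1 and Scd2 were counted. Acly, which makes cytosolic acetyl-CoA from citrate, averaged 507.6 ± 39.9 CPM in LSD1i cells and 474.1 ± 85.9 CPM in NT cells. Elovl6, an elongase of saturated fatty acids, averaged 53.2 ± 7.99 CPM in LSD1i cells and 51.1 ± 10.7 CPM in NT cells.

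Sterol transport and LXR genes gave 0 of 4 tested. Abca1, the cholesterol efflux pump and LXR target, measured 9.68, 6.96, 11.5 and 7.08 CPM in LSD1i libraries, against 11.9, 8.39, 10.2, 11.9 and 6.90 CPM in NT libraries. The values overlapped throughout, and the log2 fold change of -0.17 ± 0.20 (SE; edgeR adjusted p = 0.795) had the widest 95% interval of the 27 genes, from -0.61 to 0.27. Abcg1, its partner in efflux, averaged 25.9 ± 2.64 CPM in LSD1i cells and 27.6 ± 2.02 CPM in NT cells. Stard4, a carrier of sterols within the cell, averaged 122.4 ± 13.2 CPM in LSD1i cells and 126.5 ± 25.3 CPM in NT cells. Nr1h2, which encodes LXR-beta, had the smallest p of the group and measured 78.6, 57.6, 87.1 and 56.0 CPM in LSD1i libraries, against 63.4, 65.6, 63.3, 62.7 and 54.4 CPM in NT libraries. LSD1i 1 and LSD1i 3 lay above every NT library and LSD1i 2 and LSD1i 4 near the bottom of the NT range, with a log2 fold change of 0.17 ± 0.13 (SE; edgeR adjusted p = 0.667). Nr1h3, which encodes LXR-alpha, did not pass the low-count filter, at 0.260 to 0.580 CPM in LSD1i libraries and 0.238 to 0.493 CPM in NT libraries, which came from 3 to 11 raw reads each.

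Levels of different genes were set side by side per kilobase of exon, from GENCODE M21 lengths, which is a scale of level and not of difference. Scd2 had the highest level of all, 239.1 ± 25.8 CPM per kilobase in LSD1i cells and 224.1 ± 41.0 in NT cells. Acly followed with 96.2 ± 7.56 CPM per kilobase in LSD1i cells and 89.8 ± 16.3 in NT cells, and Fdps with 84.0 ± 7.97 in LSD1i cells and 82.1 ± 9.60 in NT cells. Cyp51 stood at 79.5 ± 5.49 CPM per kilobase in LSD1i cells and 77.5 ± 8.31 in NT cells. In NT cells Fdps and Cyp51 lay below Acly by less than the SD of Acly, and in LSD1i cells by more than it. In both groups Scd2 lay above Acly, Fdps and Cyp51 by more than its spread. Scd1, the paralog of Scd2, stood at 26.9 ± 2.27 CPM per kilobase in LSD1i cells and 29.3 ± 5.64 in NT cells. The lowest tested level was that of Abca1, 0.850 ± 0.213 CPM per kilobase in LSD1i cells and 0.950 ± 0.210 in NT cells. The full exon length of a gene stands in for the isoform in use, which was not measured.

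Many of the genes varied together between libraries of the same group. Relative to the mean of the 2 group means on the log2 scale, 12 of the 27 genes were lower in LSD1i 3, NT 1 and NT 4 and higher in NT 2 and NT 5: Mvk, Pmvk, Mvd, Fdps, Sqle, Lss, Cyp51, Tm7sf2, Insig1, Acly, Fasn and Elovl6. That is 44.4% of them, against 15.4% of all 11981 genes tested and 12 of 35 (34.3%) of the other genes tested from the same pathways. These 5 libraries were picked out after the values were seen, so the shares are a description with no test. They include the 6 genes whose promoter stretches are printed above. The widest swings among the 12 were in Tm7sf2, with -0.35 in NT 1, -0.35 in NT 4 and 0.38 in NT 5, and in Elovl6, with -0.32 in NT 1 and 0.38 in NT 5. Sqle moved least, between -0.13 in LSD1i 3 and 0.10 in LSD1i 4. NT 5 was the highest library in 12 of the 27 genes, against 19.3% of all genes, and NT 4 the lowest in 9, against 14.1% of all genes. The other genes did not share this order. Srebf2, Dhcr7, Acaca, Scd1, Scd2, Stard4 and Abca1 were all highest in NT 1, the library with the high share of Rn45s reads, and the part of that share in their levels was not tested. These 7 of 27 genes compare with 21.9% of all genes tested that were highest in NT 1. Without NT 1 the count of lipid synthesis genes called by edgeR was again 0 of 27, with a median log2 fold change of -0.02. The median standard deviation within groups was 0.19 on the log2 scale for the 27 genes and 0.19 for all genes tested.

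**Figure D3:**
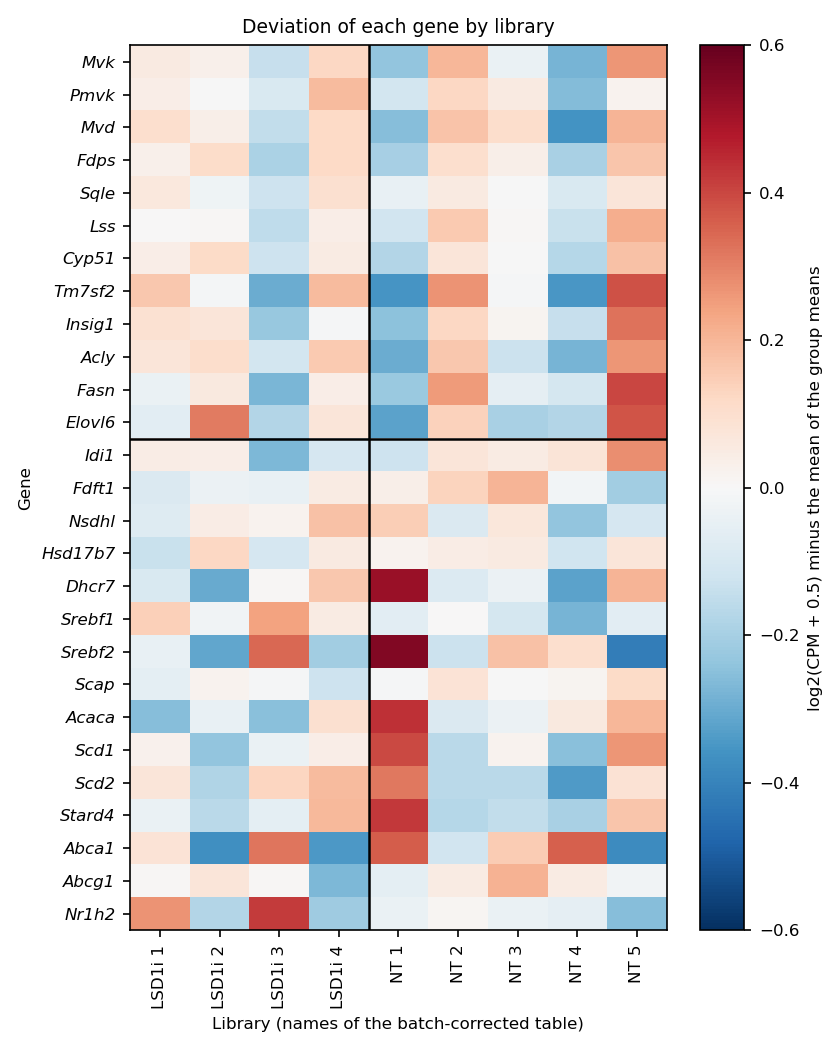
Deviation of log2(CPM + 0.5) from the mean of the 2 group means, for each of 27 genes (rows) in each library (columns, LSD1i left of the vertical line and NT right of it), red for higher and blue for lower. The 12 genes above the horizontal line are low in LSD1i 3, NT 1 and NT 4 and high in NT 2 and NT 5, and NT 1 is red in several genes under the line, Srebf2 most of all.

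Another 40 genes of the same pathways were read beside these. Of the 35 that were tested, 1 rose, 0 fell and 34 did not pass, with a median log2 fold change of 0.04. Of all genes tested, 2.15% were called higher and 1.16% lower, so 1 of 35 is a like share. The groups did not overlap in 3 of the 35 genes, against 7.73% of all genes tested. The gene that rose was Rxra, which encodes RXR-alpha, the partner receptor of the LXRs. It measured 13.1, 12.5, 9.45 and 13.6 CPM in LSD1i libraries, against 1.78, 2.91, 2.33, 1.96 and 3.15 CPM in NT libraries. Every LSD1i library lay above every NT library, and the log2 fold change was 2.32 ± 0.18 (SE; edgeR adjusted p = 4.01e-05). In raw counts with the batch term it was 2.35 (edgeR adjusted p = 2.21e-04), and within the batches 2.49 and 2.22. The second of these, from the 5 libraries named alike in both tables, passed on its own (edgeR adjusted p = 0.0213), while that of the first batch did not (edgeR adjusted p = 0.111). With the raw table's own names for all 9 libraries it was -0.61 (edgeR adjusted p = 0.999). In the authors' deposited table Rxra was marked as higher, with a log2 fold change of 2.33. Rxrb, the related receptor, averaged 76.2 ± 3.77 CPM in LSD1i cells and 77.5 ± 9.79 CPM in NT cells, a log2 fold change of -0.03 with a 95% interval of -0.24 to 0.18. Per kilobase of exon, Rxra reached 2.22 ± 0.339 CPM in LSD1i cells and 0.444 ± 0.108 in NT cells, below Rxrb at 19.2 ± 0.947 in LSD1i cells and 19.5 ± 2.46 in NT cells. The LXR targets among the listed genes, Abca1, Abcg1 and Srebf1, did not pass the test beside it.

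Of the other sterol synthesis genes 0 of 9 passed, and the smallest p was that of Ebp, a sterol isomerase. Ebp averaged 48.3 ± 4.06 CPM in LSD1i cells and 43.2 ± 4.31 CPM in NT cells, with a log2 fold change of 0.15 ± 0.10 (SE; edgeR adjusted p = 0.545). The genes of SREBP processing, lipoprotein uptake, sterol storage and LXR action numbered 13 tested, of which Rxra alone passed. In the list of other fatty acid synthesis genes 0 of 13 passed. Its smallest p belonged to Me1, the cytosolic malic enzyme that supplies NADPH, at 0.223, 0.0519, 0.464 and 0.380 CPM in LSD1i libraries, against 1.48, 0.792, 0.715, 0.476 and 1.22 CPM in NT libraries. All LSD1i values of Me1 lay below all NT values, though LSD1i 3 and NT 4 nearly met, at a level of few reads. It passed the low-count filter only through NT libraries, the group in which it was higher, and without NT 1, NT 2, NT 3 or NT 5 it was not tested, so its test has no weight as support. Its log2 fold change was -1.78 ± 0.49 (SE; edgeR adjusted p = 0.0777), and -1.53 in raw counts with the batch term (edgeR adjusted p = 0.254). With DESeq2 it passed (log2 fold change -1.77, adjusted p = 0.0346). The authors' deposited table marks Me1 as lower, with an adjusted p of 0.0496.

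**Figure D4:**
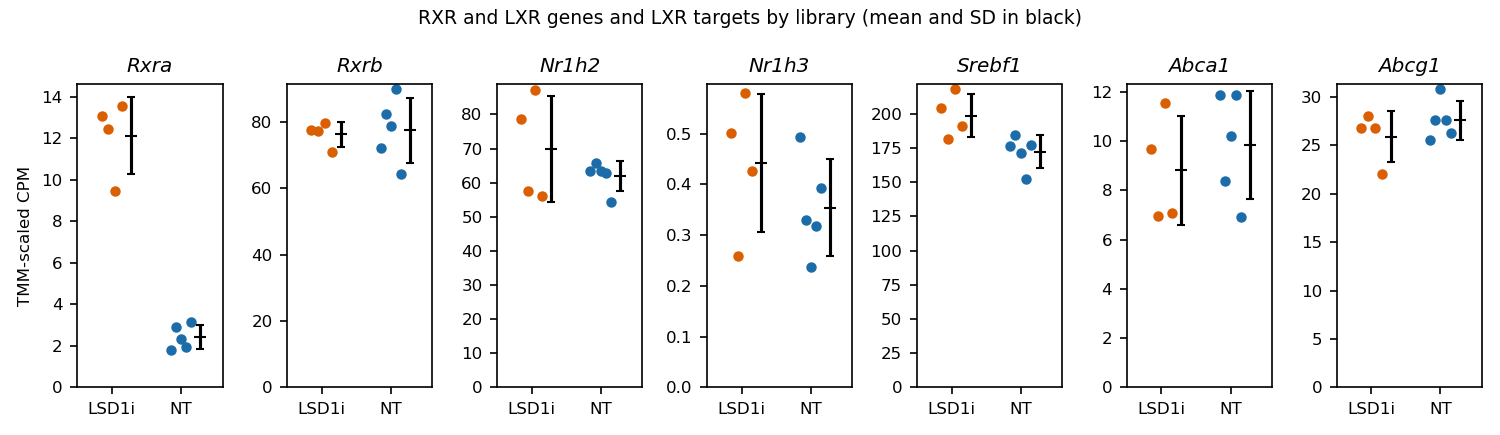
TMM-scaled CPM of the RXR and LXR genes and of the LXR targets Srebf1, Abca1 and Abcg1, LSD1i left and NT right in each panel. Points are libraries, and black marks give the mean and standard deviation, with each vertical axis starting at 0. Rxra separates, at 9.45 to 13.6 CPM in LSD1i and 1.78 to 3.15 CPM in NT libraries, and the other genes overlap.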

How the data were processed

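RNA of CD8+ T cells was sequenced in 9 libraries after a SMARTer mRNA kit, per the labels' protocols. STAR, featureCounts, edgeR and the build mm9 are named in the submitters' processing notes. For the versions, the strand setting and the method of batch correction, nothing is given in the sources used here. The authors deposited raw counts, estimated counts after a batch correction, which were whole numbers and rounded as such before testing, and a table of their own comparison. That deposited table, per the file headers, holds log2 fold changes, a test score (F) and p-values, of which the log2 values, adjusted p-values and marks were used. Columns were assigned by name within each table, and libraries of the raw and corrected tables were matched by the genes at 0.

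Genes were tested in the batch-corrected table by edgeR 4.0.16 in R 4.3.3 (quasi-likelihood test), with group as the only term and TMM scaling. The threshold was 0.05 on p-values adjusted over all genes by Benjamini-Hochberg. For edgeR's filter on low counts, a gene needed the CPM equal to 10 counts in a library of median size. It needed this in at least as many libraries, of either group, as the smaller group holds, and 15 counts in all. The authors' correction was not charged to the degrees of freedom. Standard errors were computed from the unshrunk coefficient and the F statistic. CPM were computed on TMM-adjusted library sizes, and deviations used log2(CPM + 0.5). DESeq2 1.42.0, limma 3.58.1, other scalings, other tables, batch terms and left-out libraries were alternatives, and the fit was tested on simulated data. The genes and lists were chosen with earlier results of these data known. All 29 genes are named, with library values for the smallest p of each role, for Hmgcs1, Insig1, Srebf1, Srebf2, Fasn, Scd1, Scd2 and Abca1, and for other pathway genes that passed or had the smallest p of their list. Library number and depth limit the precision of each value.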

Additional observations from a re-analysis of the deposited data

Results flagged for a closer look

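Among the 66 sets of values examined, each of 1 gene in 1 group of libraries, 2 held a library far from the rest, where chance alone puts about 1 in 20 sets past Dixon's 95% limit. For Hsd17b7, a reductase of sterol synthesis, NT 4 had 34.96 CPM and the next lowest NT library 38.5 CPM, a gap of 0.714 of the range of the NT libraries. For Nr1h2, which encodes LXR-beta, NT 5 had 54.35 CPM and the next lowest NT library 62.7 CPM, a gap of 0.742 of the range.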

How the results depend on the processing

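In 25 alternatives, edgeR, DESeq2 or limma voom called 0 lipid synthesis genes, the smallest adjusted p of any of them being 0.231, and 22 of 675 fold changes of single genes moved by more than the spread within groups. The median log2 fold change of these genes stayed between -0.09 (without NT replicate 4) and 0.06 (raw counts as named). The count of all genes called was 397, and was 251 with a batch term on the corrected table, 220 with it on the renamed raw counts, 84 on those counts by group only, 8 in their first batch, 117 in their second batch and 656 with DESeq2. It was 0 for the raw counts as named, with or without a replicate block, where 686 and 172 genes had an unadjusted p under 0.05 with and without it. Leaving out 1 library gave 219 to 432. The log2 fold change of Rxra turned to -0.61 for raw counts as named and to -0.21 for them with the replicate block. It was 2.51 (edgeR adjusted p = 0.016) for the renamed raw counts by group only. That fit differs from the raw counts as named in nothing but the 4 exchanged names. In the first batch alone Rxra missed the threshold (2.49, edgeR adjusted p = 0.111). Deviations of same-numbered LSD1i and NT libraries correlated at -0.155, 0.525, 0.143 and -0.421 for replicates 1 to 4, so the numbers were not taken as pairs. With NT libraries of another number among NT 1 to NT 4, the highest correlations were 0.102, -0.0181, 0.826 and 0.210 in that order. The fit by group only has no term for variation shared across the groups. With the replicate block the corrected table gave 326 genes and the renamed raw counts 352, with 0 lipid synthesis genes in either and medians of 0.02 and 0.03. Apart from the exchanged names, what made these values change was not tested. One alternative, the renamed raw counts with a batch term and without NT replicate 1, was chosen after seeing the data and gave 331 genes.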

Other observations

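Raw levels are given here by batch, each batch holding LSD1i and NT libraries, with no test of the batch difference. The log2 ratio of the first batch (replicates 1 and 2) over the second (replicates 3 to 5) had a median of 0.42 over the 27 genes and 0.01 over all genes tested, and 2 of 27 genes (7.41%) were past 1 in either direction, against 6.78% of all genes, a like share. Fasn averaged 642.2 raw CPM in the first batch and 224.1 in the second, a log2 ratio of 1.54, and Srebf1 averaged 270.8 and 129.1 in that order of batches, a log2 ratio of 1.06. Scd1 followed with 196.9 raw CPM in the first batch and 99.5 in the second. The sterol carrier gene Stard4 ran the other way, with 106.9 raw CPM in the first batch and 135.1 in the second. So did Idi1, Abca1 and Elovl6, with log2 ratios of -0.33, -0.19 and -0.09. What distinguishes the batches is not stated in the labels.

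Of the other pathway genes, Lipa and Soat2 are given here as chosen after their values were seen. Lipa, the lysosomal acid lipase that frees cholesterol from its esters, measured 38.2, 42.5, 44.3 and 39.7 CPM in LSD1i libraries, against 32.8, 35.4, 33.6, 35.7 and 27.2 CPM in NT libraries. The groups did not overlap, but its log2 fold change of 0.31 ± 0.09 (SE) missed the threshold (edgeR adjusted p = 0.113). Soat2, an enzyme that esterifies cholesterol for storage, measured 34.0, 25.8, 39.0 and 33.9 CPM in LSD1i libraries, against 60.9, 47.2, 49.1, 53.8 and 35.1 CPM in NT libraries. Only NT 5 lay inside the LSD1i range. Its log2 fold change was -0.58 ± 0.16 (SE; edgeR adjusted p = 0.0817), and whether it passed depended on the setting. The adjusted p was 0.0214 without NT 5, 0.0155 and 0.0335 with the replicate block on the corrected table and on the renamed raw counts, and 0.0221 with DESeq2. It was 0.304 in renamed raw counts with the batch term and 0.139 with the batch term on the corrected table, and without any other single library it lay between 0.0815 and 0.196. For raw counts as named the log2 fold change turned to 0.16. In the second batch of the raw counts its log2 fold change was -0.20, and in the first -0.82.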
